A study of Mus musculus with 11 samples.

Results

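Thyroid hormone as triiodothyronine (T3) was the single listed difference between 2 differentiation media, and the RNA of cultures kept in each was compared. The cells were neural stem cells grown from the frontal cortices of C57BL/6J mouse embryos (E14.5), expanded in a proliferation medium and then switched to a differentiation medium on coated flasks. The Neuron group (3 libraries) received Neurobasal with GlutaMAX-1 (2 mM) and B-27 supplement (2%), and the Oligodendrocyte group (2 libraries) received the same mixture plus 30 ng/mL T3, both with fresh medium every 48 h. RNA was collected at day 4 and sequenced after poly(A) selection with a strand-specific kit, and the series' design text calls the libraries of a group biological replicates. Of 37991 listed genes, 12917 reached 1 CPM (reads per gene, scaled by the authors to a common library total) in at least 2 of these 5 libraries, and those genes are described here.

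The group names stand for a medium, not for sorted cells. All cultures began as the same kind of stem cell, no vehicle-treated culture is named in the labels, and every gene below was measured in whole cultures. In such bulk samples, fewer cells of a type and less RNA per cell cannot be told apart. The B-27 supplement shared by both media is known to contain T3 itself, along with antioxidants, so the Neuron medium was not free of the hormone. Added T3 is therefore the contrast, not its presence against its absence.

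T3 enters cells through membrane transporters and binds the nuclear receptors Thra and Thrb, which sit on DNA as partners of the retinoid X receptors and trade corepressors for coactivators when hormone is bound. Dio2 makes T3 from its precursor thyroxine, and Dio3 inactivates both hormones. In the brain T3 is best known for timing the exit of oligodendrocyte precursors from division and the onset of myelin genes, and for its direct target genes Hr and Klf9.

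Estimated depth, from the size of the steps between low CPM values, was 49.3 to 61.4 M (mega) reads in Neuron and 63.4 to 64.2 M in Oligodendrocyte. Neuron replicate 2 stood apart from its group. Across genes, which are not independent replicates, its log2(CPM + 1) values correlated at r = 0.989 and 0.992 with Neuron 1 and 3, against 0.998 between those other libraries and 0.997 between the Oligodendrocyte libraries. Its genes of at least 10 CPM on average in the group were set against the mean of Neuron 1 and 3. Those with the longest transcripts lay 0.28 below that mean (median on the log2 scale). In the same library those with the shortest lay 0.20 above. It also had 8.91% of its reads on the mitochondrial genome, against 6.91% and 6.82% in Neuron 1 and 3 and 6.13% and 6.70% in Oligodendrocyte. Counts over gene lists are therefore also given without it where they moved. The labels' cell types were checked against defining markers. Of neuron genes, Map2 averaged 866 CPM, Dcx 148 CPM, Elavl3 90.9 CPM, Rbfox3 2.34 CPM and Stmn2 0.417 CPM in the Neuron group. The other listed ones there were Tubb3 28.4, Elavl4 21.8, Gap43 21.6, Syt1 11.1, Snap25 3.02, Nefm 0.477 and Nefl 0.147 CPM. Map2 averaged 885 CPM in the undifferentiated stem cells (NSC), so its level does not mark neurons here. Dcx and Elavl3 averaged 1.60 and 17.8 CPM in NSC. The astrocyte gene Gfap averaged 2647 CPM in the Neuron group, so neither group is treated below as a pure cell type.

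Most measured genes differed between the 2 media, and most of these differences were small. On the log2(CPM + 1) scale, limma called 8867 of 12917 genes at a Benjamini-Hochberg adjusted p under 0.05, which is 68.6% of those tested. Of these, 5743 (44.5%) were higher in Oligodendrocyte and 3124 (24.2%) lower, with a median absolute difference of 0.56. A difference of at least 2-fold on this scale was found for 1672 genes (12.9%), 1194 of them higher (9.24%) and 478 lower (3.7%). Without Neuron replicate 2 the 2-fold genes numbered 1174 and 512. At least 4-fold differences were found for 215 higher and 62 lower genes, and at least 16-fold for 15 and 3. In 9861 genes (76.3%) every library of one group lay above every library of the other, and these included all 1672 of the 2-fold genes. A call is thus common in this comparison. Counts over gene lists below stand against 44.5% higher and 24.2% lower, and a list near these shares does not stand out.

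The excess of higher genes depended on the scaling. The median difference of all tested genes was 0.16 as deposited, 0.03 after median-of-ratios scaling and -0.02 after quantile normalization. The share of higher genes among the calls fell from 64.8% to 52.3% and 48.0% under those scalings, and among 2-fold calls from 71.4% to 58.5% and 52.2%. Differences below are on the deposited scale and stand against its median of 0.16. Of the 1672 genes called at 2-fold or more, 1 lost its call in any of 14 alternatives and none changed sign.

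Some genes entered the test through a single group. The minimum was met only in the Oligodendrocyte libraries by 347 genes, of which 340 were called higher, and only in Neuron libraries by 262, of which 239 were called lower. Such genes had to differ to be included, so their calls support nothing. Among the genes named below, Kcna1, Aldh1a1, Aldh1a7, Syt12, Gsta3, Mog, Kcnc4, Arc, Ppargc1b and Slc16a10 entered only through Oligodendrocyte, and Dkk3, Dhrs3, Gjb6 and Ermn only through Neuron. At the edge of the filter, 444 genes reached 1 CPM in exactly 2 libraries and 260 left out reached it in 1.

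**Figure D1:**
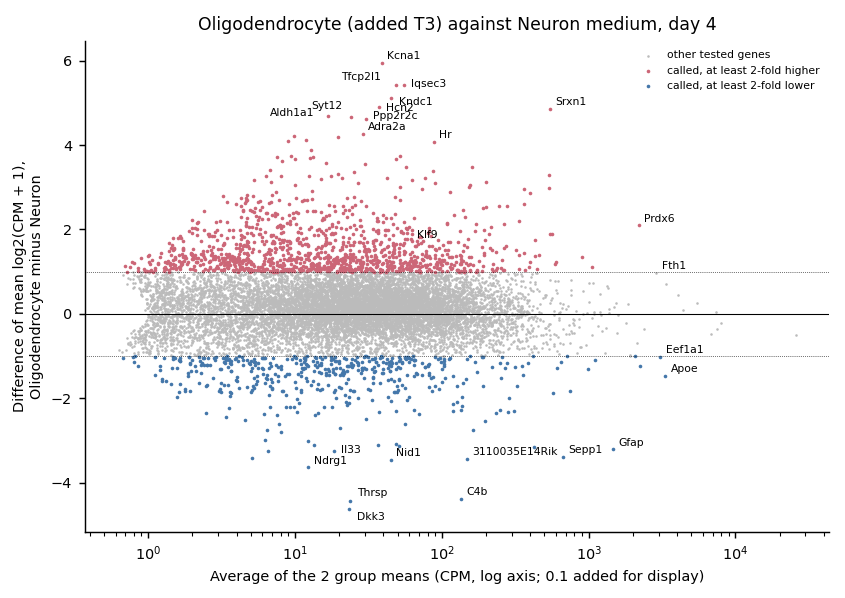
Difference of the group means of log2(CPM + 1), Oligodendrocyte minus Neuron, for each of the 12917 tested genes (vertical axis) against the average of both group means in CPM (horizontal log axis); dotted lines mark 2-fold. Called genes past 2-fold are coloured, 1194 above and 478 below, and Srxn1, Prdx6, Gfap and Apoe stand out at high levels.

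The known T3 target Hr rose more than any other tested gene on the list of T3-responsive genes. Hr (ENSMUSG00000022096, mm9 chromosome 14, 70952019 to 70973355), a nuclear corepressor that binds the T3 receptors, was at 9.86, 7.47 and 9.72 CPM in the Neuron libraries and 176.83 and 157.45 CPM in the Oligodendrocyte libraries. Both Oligodendrocyte values lay far above all Neuron values, an 18.5-fold ratio of means and a log2 difference of 4.08 (SE 0.129, adjusted p 4.61e-11). Klf9 (ENSMUSG00000033863, chromosome 19, 23215716 to 23241401), a zinc finger transcription factor, was at 30.09, 25.31 and 30.45 CPM in Neuron and 90.5 and 102.23 CPM in Oligodendrocyte. Again the groups did not overlap (3.37-fold, log2 difference 1.72, SE 0.110, adjusted p 2.09e-08).

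Of the 14 genes on the T3-responsive list, 10 passed the filter, and 7 rose, 2 fell and 1 did not pass the test, with a median log2 difference of 0.63 (8 rose without Neuron replicate 2). Among all tested genes 44.5% rose and 24.2% fell. Dbp, a clock-controlled transcription factor, rose from 23.97, 30.27 and 22.75 CPM to 78.74 and 75.17 CPM (log2 difference 1.56, adjusted p 5.82e-08). Smaller rises were found for Atp2a2, the calcium pump of the endoplasmic reticulum (0.74), Me1, the cytosolic malic enzyme (0.73), Ucp2, a mitochondrial carrier (0.54), and Thrb (0.52). Some of these levels were also reached in the series' Astrocyte cultures, collected on the same day in a medium with no T3 listed. Means there were 523 CPM for Atp2a2, 25.1 for Thrb and 77.6 for Dbp, against 498, 24.8 and 77.0 in Oligodendrocyte. Ucp2 was also higher there. Hr, Klf9 and Me1 were lower there than in Oligodendrocyte, at 34.7, 25.9 and 237 CPM, with Hr still above Neuron. The part of added T3 in these rises was not tested. The list was not uniform in direction. Thrsp (ENSMUSG00000035686, chromosome 7, 104561448 to 104566240), a regulator of lipid synthesis named for its induction by thyroid hormone in liver, was at 40.08, 54.05 and 43.26 CPM in Neuron and only 1.06 and 1.23 CPM in Oligodendrocyte. Both T3 libraries were thus far below the others (log2 difference -4.44, SE 0.126, adjusted p 2.01e-11), the second largest fall among genes of at least 10 CPM. Camk4, a calcium-dependent kinase reported as a T3 target in neurons, fell slightly (-0.42, adjusted p 2.04e-03). Under the filter were Nrgn, Dio1, Dio3 and Shh.

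Transcripts for the receptors changed little, while those for hormone supply moved in both directions. Thra, the more widely expressed receptor gene, was at 384.17, 417.11 and 407.45 CPM in Neuron and 371.12 and 383.34 CPM in Oligodendrocyte. These values do not overlap, yet the difference did not pass the test (-0.09, SE 0.063, adjusted p 0.199). Thra overlaps Nr1d1 on the opposite strand, and whether strand was used in counting is not given in the sources used here, so both values are uncertain. Thrb was at 16.52, 17.24 and 17.07 CPM against 25.81 and 23.83 CPM, 1.46-fold higher (adjusted p 4.12e-04). Its partner Rxra fell from 44.52, 40.83 and 46.69 CPM to 27.85 and 25.28 CPM (-0.71, adjusted p 2.17e-06). Of 10 tested receptors, partners and cofactors 4 rose and 1 fell, with a median of 0.00. Those that rose included Thrb, Ncoa1 and Med1. The number that fell was 3 without Neuron replicate 2 and 5 under median-of-ratios scaling.

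Dio2, the activating deiodinase, fell from 61.55, 66.03 and 66.47 CPM to 22.03 and 20.39 CPM, a 3.05-fold difference (log2 difference -1.56, adjusted p 2.20e-09). Dio3, the inactivating deiodinase, was listed at 0 in all 3 Neuron libraries and at 0.84 and 0.71 CPM in the Oligodendrocyte libraries, about 54 and 45 reads. A count of 0 allows up to 3 reads per library, so its mean was at least 14-fold higher in Oligodendrocyte, counting error only. Dio3 lay under the filter and has no test. Slc7a8 and Slc7a5, amino acid transporters that also carry T3, rose by 1.56 and 1.10 on the log2 scale. Slc16a10, another transporter of the hormone, passed the filter only through Oligodendrocyte, at 1.17 and 1.34 CPM. In all 5 of the tested supply genes the call held in every alternative, with 3 higher and 2 lower. The call of Slc16a10 supports nothing, because of how it entered, and 68.6% of all tested genes were called.

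The largest rises by the naming rule were not in classical T3 targets. The rule took the called genes with the largest differences that averaged at least 10 CPM in a group and did not overlap. They were Kcna1, Tfcp2l1, Iqsec3, Kndc1, Hcn2, Srxn1, Aldh1a1, Syt12, Ppp2r2c and Adra2a. Several of these encode proteins best known from neurons: Iqsec3 a guanine nucleotide exchange factor of inhibitory synapses, Syt12 a synaptotagmin, and Adra2a an adrenergic receptor.

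Kcna1 (ENSMUSG00000047976, chromosome 6, 126586481 to 126595819), a voltage-gated potassium channel of axons, was at 0.28, 0.09 and 0.46 CPM in Neuron and 74.68 and 79.78 CPM in Oligodendrocyte. It was close to silent without added T3 and met the filter only through Oligodendrocyte, with a ratio of means of 279 (log2 difference 5.95). Hcn2, a hyperpolarization-activated cation channel, went from 1.72, 1.45 and 1.19 CPM to 62.79 and 82.27 CPM (49.9-fold, 4.90, SE 0.126, adjusted p 1.13e-11). Both Oligodendrocyte libraries were high for both channels. The list of 27 voltage-gated potassium and HCN channels includes both of them. Of its 20 tested genes 11 rose, 4 fell and 5 did not pass, with a median of 0.43. Among all genes 44.5% rose and 24.2% fell, so the list does not stand out. The rises include Kcna1, Kcnc4 and another gene that met the filter only through Oligodendrocyte and had to differ to be included. Its other members moved less and in both directions. Kcnc4 rose by 1.87, while Kcnd2 fell by 1.36 and Kcna6 by 1.06, from 64.1 and 70.5 CPM on average. Kcna6 fell from 69.77, 68.62 and 73.08 CPM to 31.73 and 34.93 CPM.

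Tfcp2l1 (ENSMUSG00000026380, chromosome 1, 120524522 to 120581744), a transcription factor of the CP2 family known from embryonic stem cells and kidney ducts, was at 1.28, 1.28 and 1.16 CPM in Neuron and 95.22 and 95.52 CPM in Oligodendrocyte. The replicates were tight in both groups, 76.9-fold apart (log2 difference 5.43, SE 0.119, adjusted p 2.19e-12). Its relatives did not follow. Tfcp2 and Ubp1 did not pass the test (0.13 and 0.18), Grhl1 fell from 4.00, 3.15 and 4.13 CPM to 1.20 and 0.88 CPM, and Grhl2 and Grhl3 lay under the filter.

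Several other genes of that set had likewise low Neuron values. Iqsec3 was at 1.83, 1.01 and 1.94 CPM against 102.11 and 114.36 CPM (67.9-fold). Kndc1, a Ras exchange factor expressed in brain, was at 1.83, 1.09 and 1.86 CPM against 79.68 and 98.05 CPM (55.8-fold). Adra2a was at 1.89, 2.05 and 1.87 CPM against 56.40 and 54.77 CPM (28.7-fold). These 3 were low in all Neuron libraries, Neuron 2 included. Syt12 rose 53.2-fold, from 0.890 ± 0.0954 (SD, n = 3) to 47.4 ± 0.742 CPM (SD, n = 2), and Ppp2r2c, a regulatory subunit of protein phosphatase 2A, rose 40.8-fold, from 1.45 ± 0.0100 to 59.1 ± 4.56 CPM. All 5 were called, Syt12 having met the filter only through Oligodendrocyte.

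**Figure D2:**
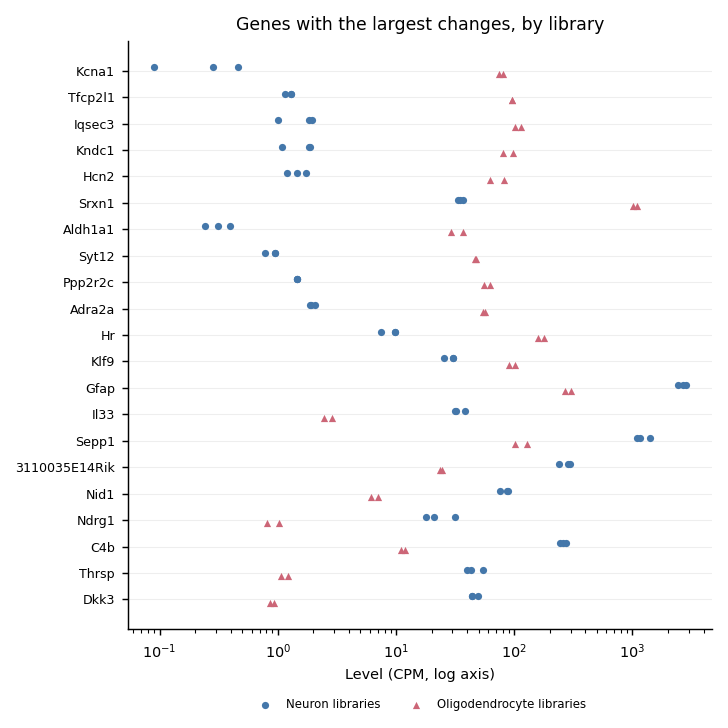
CPM (horizontal log axis) of Hr, Klf9 and genes with the largest rises and falls, 1 point per library; circles are the 3 Neuron and triangles the 2 Oligodendrocyte libraries. The groups are separate in every gene shown, which the naming rule required of all but Hr and Klf9, and in 76.3% of all tested genes. Genes run from Kcna1 (0.09 to 0.46 against 74.68 and 79.78 CPM) to Dkk3 (43.77 to 49.64 against 0.92 and 0.85 CPM). Kcna1 and Dkk3 each met the filter only through the group where they are high.

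The largest falls included secreted proteins and genes of astrocytes. Among them were Dkk3, Thrsp, C4b, Ndrg1, Nid1, 3110035E14Rik, Sepp1, Il33 and Gfap. For 8 of the 10 largest falls the Astrocyte mean lay between those of the 2 groups, and for 2 it lay above both. Dkk3 (ENSMUSG00000030772, chromosome 7, 119259533 to 119302571), a secreted relative of the Dickkopf Wnt antagonists, was at 44.24, 43.77 and 49.64 CPM in Neuron and 0.92 and 0.85 CPM in Oligodendrocyte. It was nearly absent from both T3 cultures, 51.8-fold lower (log2 difference -4.63), and met the filter only through Neuron. C4b, a complement component made by astrocytes, fell from 256.67, 243.53 and 273.21 CPM to 11.85 and 10.95 CPM (22.6-fold). Sepp1, the selenium carrier selenoprotein P, fell from 1086.41, 1410.87 and 1153.11 CPM to 127.70 and 102.21 CPM (10.6-fold). Both groups of values were far apart in each case.

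Nid1, a basement membrane linker protein, fell 12.6-fold, from 83.4 ± 7.22 (SD, n = 3) to 6.63 ± 0.672 CPM (SD, n = 2). Il33, an alarm cytokine held in the nucleus, fell 12.8-fold. Ndrg1, a stress and differentiation gene, fell 25.5-fold and varied more within Neuron than the others, at 17.76, 31.59 and 21.06 CPM. Its log2 difference was -3.63, and -3.41 without Neuron replicate 2. 3110035E14Rik, a gene named here only by its clone, fell 11.3-fold from 272.8 ± 30.2 CPM (SD, n = 3).

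Counted in CPM rather than in folds, the 5 largest rises with no overlap were mt-Nd1, mt-Nd2, Fth1, Prdx6 and Srxn1, and the 5 largest falls mt-Co1, mt-Co2, Apoe, Eef1a1 and Gfap. Prdx6, a peroxiredoxin, rose from 739.56, 1008.81 and 773.17 CPM to 3580.74 and 3563.83 CPM (log2 difference 2.10). Apoe, the main lipid carrier made by glia, fell from 4285.04, 5786.13 and 4642.55 CPM to 1886.25 and 1647.64 CPM (-1.46). Eef1a1, the translation elongation factor, fell from 3843.10, 4451.52 and 4067.23 CPM to 1922.62 and 2136.69 CPM (-1.02). Neuron 2 held the highest Neuron value in each of these 3 genes, and their differences without it were 2.24, -1.34 and -0.96. The mitochondrially encoded genes were less firm: of 12 tested, 2 rose, 4 fell and 6 did not pass (median -0.22; 3 fell without Neuron replicate 2), and the calls of mt-Nd1, mt-Co1 and mt-Co2 were lost in 3, 5 and 4 of 14 alternatives.

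Promoter sequence was searched for the T3 receptor half-site because Hr, Klf9 and the largest changes are the genes the comparison turns on. RefSeq windows (GRCm38.p6, from 250 bases before to 50 after a start) were matched for 14 of these 22 genes, in 18 windows. The letters AGGTCA, on either strand, occurred in windows of 3 genes, Hcn2, Srxn1 and Gfap, and in 16.3% of all 32851 windows. A pair of them 4 bases apart in the same orientation, the arrangement preferred by T3 receptors, occurred in none of the 14 genes and in 0.0152% of all windows. Klf9, Thrsp and Tfcp2l1 had a window without the half-site, and Hr, Kcna1 and Dkk3 were not matched. The stretches upstream of the start in the 3 genes with a half-site follow, 5′ to 3′ on the gene's strand, with AGGTCA or its complement TGACCT in capitals. They lie at chr10:79716439-79716498 (plus strand), chr2:152105282-152105341 (plus strand) and chr11:102897253-102897312 (minus strand).
Hcn2: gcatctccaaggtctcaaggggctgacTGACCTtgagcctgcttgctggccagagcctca
Srxn1: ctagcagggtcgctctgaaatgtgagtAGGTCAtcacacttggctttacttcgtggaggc
Gfap: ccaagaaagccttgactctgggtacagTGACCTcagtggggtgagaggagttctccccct
The half-site began at -168, -215 and -85 from the start in Hcn2, Srxn1 and Gfap, 2 genes that rose and 1 that fell. A further half-site began at -249 in Hcn2 and at 32 after the start in Srxn1. A match describes the letters only, and the windows do not reach distant enhancers.

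Genes of the antioxidant response were raised together. This list was written after Srxn1 and Prdx6 had been seen among the leading genes, so its count supports nothing beyond them and it gets no test. All 23 members were tested, 22 rose, 16 of them at least 2-fold, and Sqstm1 did not pass the test. The median log2 difference was 1.75, against 0.16 for all genes, and the summed level was 5805 to 7349 CPM in Neuron libraries and 16312 to 17395 CPM in Oligodendrocyte libraries.

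Srxn1 (ENSMUSG00000032802, chromosome 2, 151931252 to 151937112), sulfiredoxin, which restores oxidized peroxiredoxins, was at 33.67, 34.72 and 37.06 CPM in Neuron and 1091.53 and 1018.73 CPM in Oligodendrocyte. The values within each group were close, and the groups were 30.0-fold apart (log2 difference 4.87, SE 0.078, adjusted p 2.58e-13). In the Astrocyte cultures Srxn1 averaged 124 CPM. Prdx6 averaged 2708 CPM there, against 841 CPM in Neuron and 3572 CPM in Oligodendrocyte. Txnrd1, thioredoxin reductase, rose from 121.11, 111.72 and 131.36 CPM to 1040.05 and 881.92 CPM (7.92-fold). Gsta3, a glutathione transferase, rose from 0.73, 0.54 and 0.49 CPM to 15.17 and 10.71 CPM (22.1-fold). Slc7a11, which imports cystine for glutathione, rose 5.51-fold, Nqo1, a quinone reductase, 5.50-fold, and Hmox1, heme oxygenase, 4.46-fold. Gclm, a subunit of the enzyme that begins glutathione synthesis, rose from 188.93, 201.41 and 199.49 CPM to 721.01 and 607.53 CPM. Members with small rises were Cat (0.46) and Nfe2l2 (0.63), the gene for the factor that drives this response.

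**Figure D3:**
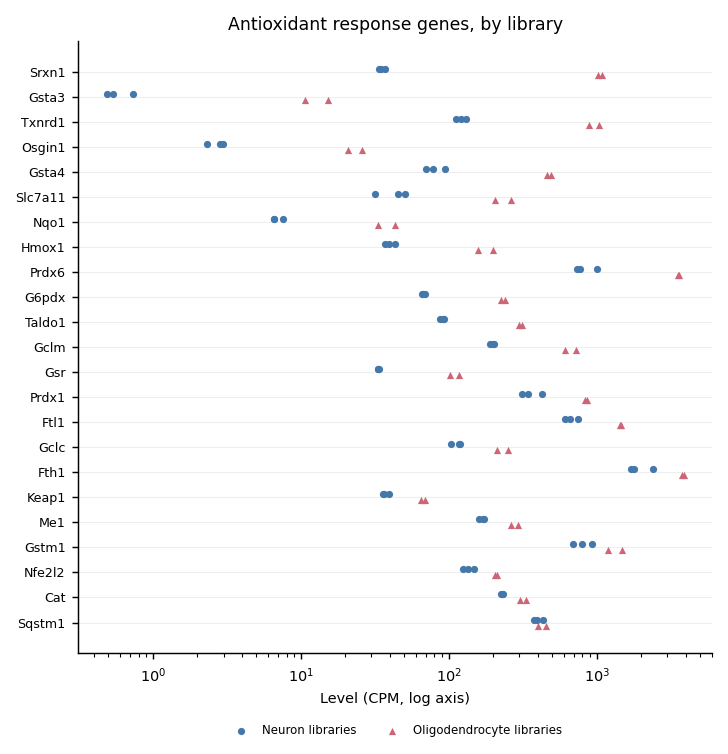
CPM (horizontal log axis) of the 23 antioxidant response genes in each library, ordered by their difference; circles are Neuron and triangles Oligodendrocyte libraries. From Srxn1 (33.67 to 37.06 against 1018.73 and 1091.53 CPM) down to Cat the groups are apart, and in Sqstm1 they overlap.

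Promoter windows of this list were searched for the core of the antioxidant response element, TGACNNNGC on either strand, a motif likewise added after the values were seen. Of 18 list genes with a window, 8 held it, in 8 of 23 windows, against 12.4% of all 32851 windows. The core in the upstream part of 4 of these promoters is shown in capitals, 5′ to 3′ on the gene's strand, to show what was matched. In Txnrd1, Prdx1, Gclm and G6pdx the core began at -92, -133, -134 and -57 from the start. The stretches lie at chr10:82859089-82859148 (plus), chr4:116685441-116685500 (plus), chr3:122245398-122245457 (plus) and chrX:74428903-74428962 (minus) in GRCm38.p6.
Txnrd1: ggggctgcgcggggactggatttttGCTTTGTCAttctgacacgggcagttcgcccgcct
Prdx1: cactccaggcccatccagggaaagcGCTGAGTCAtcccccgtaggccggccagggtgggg
Gclm: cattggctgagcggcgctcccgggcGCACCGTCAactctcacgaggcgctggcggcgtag
G6pdx: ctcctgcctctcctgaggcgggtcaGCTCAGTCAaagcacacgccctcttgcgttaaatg
All 4 are on the complementary strand as printed (GC, 3 bases, GTCA), while the upstream cores of Gsta3 and Nfe2l2 read TGACNNNGC. Srxn1 and Me1 also held a core, and the differences of the 8 genes ran from 0.63 in Nfe2l2 and 0.73 in Me1 to 4.87 in Srxn1.

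A further list written after the values were seen held amino acid transporters and targets of the stress factor Atf4. Its count therefore supports nothing, and it gets no test. Of 17 tested genes, 16 rose and 1 fell, with a median of 1.46, where 44.5% of all genes rose. Atf5, a transcription factor related to Atf4, rose from 22.55, 28.98 and 24.72 CPM to 266.26 and 324.14 CPM (11.6-fold). Slc38a3, a glutamine transporter, rose from 97.16, 93.71 and 97.93 CPM to 709.67 and 695.75 CPM (7.30-fold). Both Oligodendrocyte libraries were high in each. Slc1a5, another glutamine transporter, rose 13.0-fold, Ddit4l, an inhibitor of mTOR signalling, 8.50-fold, Mthfd2, a mitochondrial folate enzyme, 8.86-fold, and Asns, asparagine synthetase, 3.70-fold. Phgdh, the first enzyme of serine synthesis, fell (-0.59). The broader stress list of 12 genes had 9 rises and 1 fall (median 0.91), where 44.5% of all genes rose and 24.2% fell. Of its members, 5 are also on the lists above. Hspa5, the chaperone of the endoplasmic reticulum, rose (1.07), while Ddit3 fell (-0.46).

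The medium is named for oligodendrocytes, and precursor genes of that lineage were lower in it. For mature genes of the lineage, counts of calls of any size were near those of all genes, but 2-fold rises were more frequent. Of 15 precursor and commitment genes, none rose and 10 fell (median -0.47; 12 fell without Neuron replicate 2), where 24.2% of all genes fell. Sox10, a transcription factor of the whole lineage, fell from 142.27, 116.41 and 145.63 CPM to 35.52 and 38.53 CPM (3.64-fold, log2 difference -1.83, SE 0.137, adjusted p 9.27e-08). Nkx2-2 fell from 42.09, 34.08 and 40.30 CPM to 9.67 and 10.86 CPM (3.78-fold), and Pdgfra, the receptor that keeps precursors dividing, from 232.27, 167.62 and 232.51 CPM to 66.17 and 66.16 CPM (3.19-fold). Every Oligodendrocyte value of these 3 genes lay below every Neuron value. Olig1 did not pass the test (-0.08), Olig2 fell slightly (-0.24) and lost its call in 7 of 14 alternatives, and Gpr17 (-0.47) lost it in 5.

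Of 17 mature oligodendrocyte genes, 8 rose, 5 fell and 4 did not pass (median 0.26, against 0.16 for all genes). For calls of any size these shares are close to the 44.5% higher and 24.2% lower among all genes. Mog, a late surface protein of myelin, went from 0.37, 0.45 and 0.76 CPM to 9.42 and 9.77 CPM (18.2-fold, log2 difference 2.80) and met the filter only through Oligodendrocyte. Tspan2, a tetraspanin of myelin, went from 12.30, 10.74 and 12.04 CPM to 55.62 and 64.90 CPM (5.15-fold). Nkx6-2, Mobp and Mal rose by 1.56, 1.33 and 1.02. The smaller rise of Opalin (0.30) lost its call in 8 of 14 alternatives. The 2-fold changes on the list were Mog, Tspan2, Nkx6-2, Mobp and Mal, and Mog had to differ to be included. All 5 were higher, where 9.24% of all genes were 2-fold higher and 3.7% 2-fold lower. The most familiar myelin genes did not follow them: Mbp was at 521.84, 456.36 and 507.33 CPM against 532.79 and 654.74 CPM (0.26, adjusted p 0.173), and Mag, Cnp, Gal3st1, Aspa and Ermn fell by 0.26 to 0.80, the calls of Mag and Cnp being lost in 5 and 6 of 14 alternatives. Myrf, the master regulator of myelin genes, was at 115.77, 76.41 and 116.47 CPM against 168.93 and 190.48 CPM (0.82, and 0.62 without Neuron replicate 2). The 2 Oligodendrocyte libraries were apart in several of these genes, and without replicate 2 the rises numbered 5 instead of 8, while the falls numbered 3 without Oligodendrocyte replicate 1 or Neuron replicate 3.

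**Figure D4:**
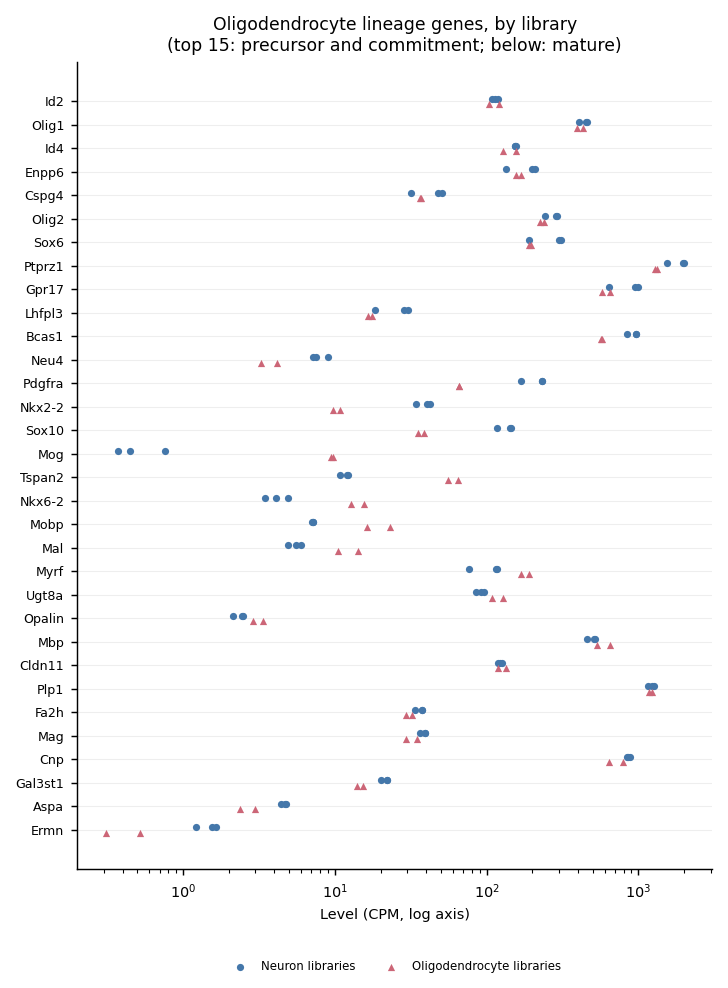
CPM (horizontal log axis) of 15 precursor and commitment genes (upper block) and 17 mature oligodendrocyte genes (lower block), 1 point per library; circles are Neuron and triangles Oligodendrocyte libraries. Pdgfra, Nkx2-2 and Sox10 lie lower in Oligodendrocyte, Mog, Tspan2 and Nkx6-2 lie higher, and Olig1 overlaps.

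Astrocyte genes were lower with added T3. Of 16 members 12 fell, 3 rose and 1 did not pass, with a median of -1.13, where 24.2% of all genes fell. The summed level went from 12950 to 14195 CPM in Neuron to 7192 to 8030 CPM in Oligodendrocyte. Gfap, the astrocyte intermediate filament (ENSMUSG00000020932, chromosome 11, 102748650 to 102762226), was at 2449.37, 2828.12 and 2662.62 CPM against 299.15 and 269.65 CPM, 9.31-fold lower (log2 difference -3.21, SE 0.111, adjusted p 9.64e-11). Aqp4, the water channel of astrocyte endfeet, fell from 738.16, 806.48 and 745.33 CPM to 93.63 and 77.57 CPM (8.92-fold). Agt, angiotensinogen, fell 9.53-fold and Gjb6, a gap junction protein, 13.6-fold. Not all astrocyte genes went down. Fgfr3 and Atp1b2 rose by 0.99 and 0.74, and Acsbg1 by 0.31.

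Genes of young neurons changed unevenly. Of 9 tested, 3 rose and 5 fell, with a median of -0.40, and 1 rose under quantile normalization. Syt1, the calcium sensor of synaptic vesicles, fell from 12.42, 8.0 and 12.78 CPM to 3.49 and 4.47 CPM, and Dcx, a microtubule protein of migrating neurons, fell by 0.73 (0.95 without Neuron replicate 2). Elavl3, an RNA-binding protein of neurons, rose from 97.55, 78.59 and 96.69 CPM to 164.10 and 192.42 CPM (0.97). Of 9 tested genes of ventral inhibitory neurons none rose and 6 fell (median -0.52), including a gene that met the filter only through Neuron. Gad1, which makes GABA, fell from 37.77, 30.01 and 38.10 CPM to 9.63 and 7.43 CPM (4.14-fold), and Dlx1 fell by 1.10. Of 4 tested genes of dorsal glutamatergic neurons none rose and 3 fell (median -0.60), all below 7 CPM in every library. These falls also include a gene that met the filter only through Neuron, whose call supports nothing.

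Cell cycle genes were mostly higher in the T3 cultures. Of 20 genes 16 rose, 1 fell and 3 did not pass (median 0.87; 13 rose under quantile normalization), where 44.5% of all genes rose. Mcm2, a subunit of the replicative helicase, rose from 6.66, 5.99 and 7.28 CPM to 25.55 and 25.53 CPM (3.84-fold, adjusted p 6.29e-10). Top2a, a topoisomerase of dividing cells, rose from 19.70, 12.77 and 20.39 CPM to 39.72 and 39.94 CPM, and Ccnd1 and Ccne1 rose by 1.18 and 1.34. Of mitotic genes, Aurkb, Mki67 and Bub1 rose by 0.91, 0.89 and 0.68, while Ccnb1 and Cdk1 did not pass the test (0.03 and 0.00). Mcm7 fell (-0.30). Among 11 tested inhibitors of division 7 fell and 1 rose (median -0.34; 8 fell without Neuron replicate 2), where 24.2% of all genes fell. The one that rose was Cdkn1a, the p21 inhibitor, from 53.57, 59.70 and 60.33 CPM to 333.77 and 344.08 CPM (5.86-fold), and Cdkn1c, the p57 inhibitor, fell 5.31-fold. In NSC Cdkn1a averaged 235 CPM.

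Neural progenitor genes also went both ways, with 5 of 14 higher, 7 lower and 2 not called (median -0.17). Nes, the progenitor intermediate filament, rose from 71.03, 62.50 and 77.67 CPM to 411.35 and 426.81 CPM (5.95-fold). It averaged 1251 CPM in NSC. Prom1 and Id3 rose by 1.11 and 0.96. In contrast Hes5, a Notch target, fell from 24.84, 19.31 and 25.94 CPM to 4.39 and 2.95 CPM (6.37-fold), and Pax6, a transcription factor of cortical progenitors, fell 2.10-fold.

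Cholesterol synthesis genes rose as a group in count, with 14 of 17 higher and none lower (median 0.65), and 13 without Neuron replicate 2. Among all genes 44.5% were higher. Mvk, mevalonate kinase, rose from 12.95, 11.19 and 12.97 CPM to 32.15 and 37.60 CPM (2.82-fold). Fatty acid genes moved less: of 14, 5 rose, 1 fell and 8 did not pass (median 0.13; 2 fell without Neuron replicate 2). Acacb, the mitochondrial acetyl-CoA carboxylase, rose from 1.22, 0.85 and 0.99 CPM to 5.45 and 5.14 CPM, and the gene that fell was Thrsp. Fasn, fatty acid synthase, did not pass (-0.23). Of 13 tested genes of mitochondrial biogenesis and uncoupling 9 rose and 3 fell (median 0.43), and 7 and 2 without Neuron replicate 2. The shares of all genes were 44.5% higher and 24.2% lower. Gpd2, the glycerol phosphate shuttle enzyme long tied to T3 action, rose from 97.08, 80.73 and 96.14 CPM to 201.63 and 185.70 CPM (2.12-fold), and Ppargc1a, a coactivator of mitochondrial genes, rose by 0.84. The 3 that fell, by 0.18 to 0.19, were lost in 3 to 7 of 14 alternatives, and among the rises Ppargc1b and Tfb2m (0.23 and 0.20) were lost in 8 and 10.

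Retinoid genes, a list written after Aldh1a1 had been seen, had 4 rises and 5 falls among 11 tested (median -0.07). Aldh1a1, which makes retinoic acid, went from 0.24, 0.39 and 0.31 CPM to 36.61 and 29.44 CPM (105-fold, log2 difference 4.69) and met the filter only through Oligodendrocyte. Its neighbour and near copy Aldh1a7 rose from 0.30, 0.49 and 0.49 CPM to 20.28 and 15.90 CPM, and reads shared between the 2 genes cannot be told apart here. Dhrs3, which turns retinal back to retinol, fell from 9.21, 13.00 and 12.71 CPM to 0.48 and 0.66 CPM (20.4-fold). The receptors moved less: Rarb rose by 0.55 and Rara fell by 0.75.

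Among 25 tested other nuclear receptors 9 rose and 9 fell (median 0.05; 10 fell without Neuron replicate 2). Nr4a1, an immediate early receptor gene, fell by 1.47 on the log2 scale, and Ppard and Esrra rose 2.04- and 2.05-fold. Of 12 tested Klf genes 4 rose and 4 fell (median -0.05; 5 fell without Neuron replicate 2). Beside Klf9, Klf11 fell from 35.21, 40.43 and 39.55 CPM to 8.66 and 7.57 CPM (4.73-fold) and Klf15 fell 2.24-fold. Klf10 and Klf13 rose by 0.82 and 0.58. Of 16 clock genes 7 rose, 3 fell and 6 did not pass (median 0.20; 8 rose without Neuron replicate 2). These counts are near the shares of all genes (44.5% higher and 24.2% lower). Apart from Dbp the changes of clock genes were small, with Tef at 0.76, Per3 at 0.69 and Hlf at -0.86.

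Genes of Wnt antagonists and targets had 6 rises and 3 falls among 13 tested (median 0.20), near the shares of all genes (44.5% and 24.2%). Beside Dkk3, Nkd1 rose from 4.26, 3.87 and 4.00 CPM to 12.55 and 14.36 CPM, Apcdd1 fell 2.97-fold and the general Wnt target Axin2 did not pass (-0.05). Basement membrane genes had 8 rises and 5 falls among 14 (median 0.64), and 4 leave-one-out fits left 3 falls. The shares of all genes were again 44.5% higher and 24.2% lower. Nid1 was the exception in size among the falls of this list. Col4a1, a chain of type IV collagen, rose from 23.84, 23.27 and 26.28 CPM to 92.78 and 106.99 CPM (4.08-fold) and Fn1, fibronectin, 3.23-fold. Immediate early genes had 3 rises and 5 falls among 10 (median -0.18). Fos fell from 35.82, 41.11 and 38.59 CPM to 15.08 and 14.28 CPM and Junb 3.30-fold, while Arc rose from under 1 CPM to 2.45 and 1.91 CPM.

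**Figure D5:**
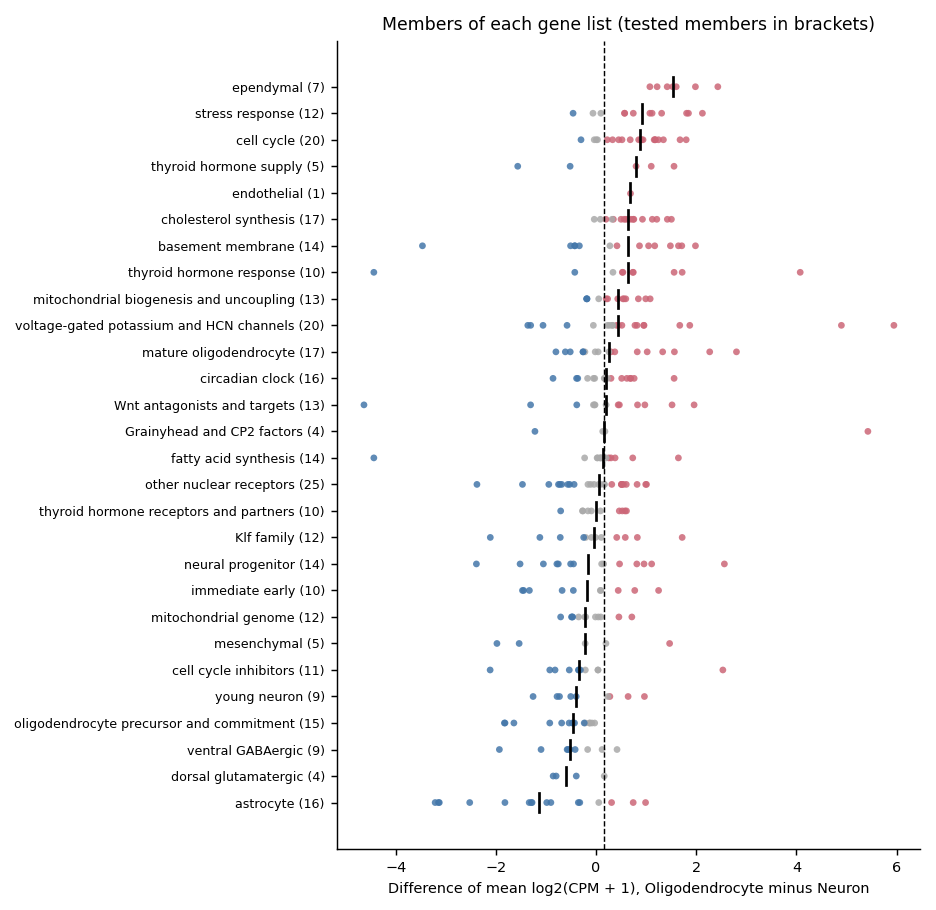
Difference of mean log2(CPM + 1), Oligodendrocyte minus Neuron, for each tested member of each list not written after the values were seen (points; coloured where called, grey where not), with the list's median (black bar); the dashed line is the median of all genes, 0.16. Medians run from -1.13 for astrocyte genes to 1.53 for ependymal genes, and most lists hold members on both sides.

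Markers of other cell types were read beside these lists. All 7 tested ependymal genes rose at least 2-fold (median 1.53), against 9.24% of all genes. The summed level of the list was 44.3 to 58.7 CPM in Neuron and 159.6 to 167.8 CPM in Oligodendrocyte. Foxj1, the master factor of motile cilia, rose from 40.10, 53.11 and 43.98 CPM to 135.32 and 130.93 CPM, and Dnah5, an axonemal dynein, from 1.01, 0.77 and 0.86 CPM to 8.96 and 9.29 CPM. Foxj1 held most of the summed Neuron level, and the other members were low there. Any member that reached 1 CPM only in Oligodendrocyte had to rise to be included, so the count of 7 supports little. The part of ependymal cells in the other differences was not tested. No microglial gene passed the filter, and the 10 summed to at most 1.08 CPM in a library. Of 10 endothelial genes only Kdr was tested, and it rose (0.69), with a summed level of 1.35 to 3.14 CPM over all libraries. Of 10 mesenchymal genes 5 were tested, 1 rose and 2 fell (3 without Neuron replicate 2), while Col1a1 was at 0.03 to 0.13 CPM and Lum was listed at 0. Pdgfrb, a receptor of pericytes, fell from 36.26, 34.85 and 41.52 CPM to 10.02 and 7.62 CPM.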

How the data were processed

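RNA sequencing of the Neuron (n = 3) and Oligodendrocyte (n = 2) groups is described here, and 6 libraries of the other groups entered the same model. The authors deposited CPM values per gene and library, rounded to 2 decimals, with gene coordinates, and the submitters' processing notes name the mouse build NCBIM37 (mm9) and bcl2fastq 1.8.4, TopHat2 2.0.8, HTSeq 0.6.1, edgeR 3.2.4, R 3.0.0 and HOMER, with no role given. CPM are not counts, so no count model was used.

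The filter kept genes that reached 1 CPM in 2 or more of the 5 libraries. With limma 3.58.1 (R 4.3.3), a mean per group was fitted to log2(CPM + 1) over 11 libraries (eBayes with trend; 7 residual and 5.90 prior degrees of freedom). The pseudocount of 1 understates the change of low genes. Tests were two-sided, with Benjamini-Hochberg adjustment over 12917 genes and a threshold of 0.05. The p-values measure the spread between these libraries, whose separate cultures the labels do not detail. The script was tested on simulated data.

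Named genes were Hr, Klf9, Kcna1, Tfcp2l1, Dkk3 and Thrsp, the 10 largest rises and falls among non-overlapping genes averaging 10 CPM or more in either group, the 5 largest in CPM, and list members; some of these genes are counted but not reported by name here. The members, the 29 lists and the rule were chosen with earlier results of these data known, and 3 lists and the antioxidant motif were added after their values had been seen. Each gene list is described by counts and a median and was not tested. Whether replicate numbers pair the groups was not settled. Deviations of same-numbered libraries correlated at 0.020 and 0.014 across genes. With only 2 Oligodendrocyte libraries their deviations mirror each other, so these values cannot decide it. Depth came from CPM steps, transcript length from GENCODE M21 for 94.6% of genes, and promoter windows from RefSeq.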

Additional observations from a re-analysis of the deposited data

How the results depend on the processing

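The 2-fold count depended most on the pseudocount: 904 genes with 5 CPM and 2244 with 0.1 CPM, against 1672 with 1 CPM. Leaving out each library in turn gave 7480 to 9284 calls and 1613 to 1730 at 2-fold. The lone Oligodendrocyte library left in such a fit is assumed to vary like the other groups. The other filters, the scalings and the fit on the 5 libraries alone gave 7864 to 9818 calls and 1553 to 1676 at 2-fold. With the replicate block, which has 2 shared numbers to work with and rests on numbers not shown to pair the libraries, 8760 genes were called, 1688 of them at 2-fold.

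Among the 3056 genes with the longest transcripts, calls were 1294 higher and 677 lower, and 1202 and 931 without Neuron replicate 2, so directions of small changes in long genes rest on that library. Differences near 0 that did not pass the test changed sign under median-of-ratios scaling, quantile normalization and rescaling without mitochondrial genes in Ccnb1 (-0.075, -0.19, -0.030) and Cdk1 (-0.12, -0.26, -0.064). They did so under the first of these in Sqstm1 (-0.055) and under the first and second in Tfcp2 (-0.0036, -0.066). Leaving out a library gave -0.17 to 0.22 for Ccnb1 and -0.091 to 0.066 for Cdk1. Counts over several gene lists also moved with 1 library, as given beside them. The cause was not tested. The number of Oligodendrocyte libraries (2) limits the precision of that group's means, and depth limits genes near 0 CPM such as Dio3.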
